A study of Mus musculus with 107 samples.

Results

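The genes described here code for proteins that carry lipids outside cells or act on the particles that do: the apolipoproteins Apoe, Clu (clusterin, also called apolipoprotein J), Apod and Apoc1, and the enzymes Lpl (lipoprotein lipase) and Lcat (lecithin-cholesterol acyltransferase). They were chosen by symbol, by the role of their products, and matched to mouse Entrez identifiers. They are 6 of the 27179 genes counted in each library. All 6 had counts in the tables and were compared between the groups named in the sample titles.

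The data are RNA sequencing counts of 107 RiboTag libraries in 23 groups. RiboTag is a ribosomal protein that gains an HA tag after Cre-lox recombination, so that pulling down HA collects the RNA being translated in tagged cells. All libraries are labelled C57BL/6 and RiboTag positive, which for grafts refers to the grafted cells, since the labels do not give the genotype of the recipients. Embryonic stem cells (ESC), neural progenitor cells (NPC) and grafts all came from a single female ESC line, which limits them as a model to that line.

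The cultured groups were as follows. ESC (n = 4) were kept with serum and LIF. NPC were derived with retinoic acid and a sonic hedgehog agonist and expanded in EGF and FGF at 100 ng/ml each. One derivation was collected after 5, 15 or 30 passages (groups NPC P5, NPC P15 and NPC P30 of 4 libraries each), and other derivations after 15 (NPC P15 D2, n = 6, and NPC P15 D3, n = 4). For differentiation EGF and FGF were lowered to 1 ng/ml for 4 days, with no addition (SPONT), with 100 ng/ml CNTF or IGF-1, with fetal bovine serum at 1, 5, 10 or 20% (1% FBS to 20% FBS), or with CNTF and 5% FBS together, each n = 4. A further 3 groups of NPC (n = 5 each) were passed through a pipette in medium (NPC media), in DCH, a hydrogel that carries cells into tissue (NPC DCH), or in DCH after being held there for 4 h (NPC DCH 4 h).

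The spinal cord groups were from adult mice. Host astrocytes were tagged by a Gfap-Cre transgene (line 73.12) crossed to RiboTag, in healthy cord (Astro, n = 9) and 14 days after a crush spinal cord injury (Astro SCI, n = 5). NPC had been grafted into uninjured cord (Graft uninjured), into a crush injury (Graft SCI 14 d) or into a double crush (Graft dSCI) and were recovered at 14 days, or were recovered from a crush injury at 5 days (Graft SCI 5 d), each n = 5. The study injected NPC in a hydrogel, days after the crush where there was one. It counts the 14 days in places from injury and in others from grafting. Host astrocytes are described without injection or hydrogel, which therefore cannot be told apart from cell source. In grafts the tag marks every descendant of the NPC, and in hosts every cell that has used the Gfap promoter. Nothing in the labels says that libraries of a culture group came from separate cultures. The study states that its culture experiments had independent biological replicates, without linking them to single libraries. The p-values of culture groups measure the spread between their libraries, which may still be technical.

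Lipoproteins in the brain and spinal cord resemble small high-density lipoproteins, since those of blood do not pass the blood-brain barrier in bulk. Astrocytes are the main makers of Apoe in healthy nervous tissue, microglia and macrophages make it after injury, and the Abca1 transporter loads it with cholesterol and phospholipid. Cells take the particles up through lipoprotein receptors. Clu is a secreted chaperone that also binds lipids, Apod is a lipocalin that binds arachidonic acid and other small lipids, Apoc1 exchanges between particles and restrains lipid transfer and lipase action, Lpl releases fatty acids from triglyceride in particles, and Lcat esterifies the cholesterol of high-density lipoproteins with Apoe or Apoa1 as its activator.

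On GRCm38 (mm10), Apoe (Entrez 11816) spans chr7:19696244-19701310 and Apoc1 (11812) chr7:19689480-19692659, with 3584 bases between them. Clu (12759) spans chr14:65968483-65981548, Apod (11815) chr16:31296192-31314808, Lpl (16956) chr8:68880555-68906932 and Lcat (16816) chr8:105939551-105943402. Start site sequences of 3 of the 6 genes were found in RefSeq (GRCm38.p6). They are shown so that the letters before the starts can be read beside the levels of Apoe, Apod and Lcat. Each is the 250 bases before a start on the minus strand, and the Apoe starts lie within the span of the gene given above. Apoe has 3 starts in that table, and the window of the start not shown overlaps the second one. The capitals mark TATAAA on either strand in the second Apoe sequence and CCAAT on the reverse strand in that of Lcat.
Apoe, chr7:19699189-19699438: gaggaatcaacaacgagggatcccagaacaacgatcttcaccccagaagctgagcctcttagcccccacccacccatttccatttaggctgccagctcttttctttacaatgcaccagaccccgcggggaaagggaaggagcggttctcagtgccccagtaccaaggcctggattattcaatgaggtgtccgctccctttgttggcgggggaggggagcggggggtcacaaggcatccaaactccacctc
Apoe, chr7:19698622-19698871: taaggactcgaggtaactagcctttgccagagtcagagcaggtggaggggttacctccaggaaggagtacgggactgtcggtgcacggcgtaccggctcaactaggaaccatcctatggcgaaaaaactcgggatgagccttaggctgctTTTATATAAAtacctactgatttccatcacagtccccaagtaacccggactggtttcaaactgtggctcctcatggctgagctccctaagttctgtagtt
Apod, chr16:31314809-31315058: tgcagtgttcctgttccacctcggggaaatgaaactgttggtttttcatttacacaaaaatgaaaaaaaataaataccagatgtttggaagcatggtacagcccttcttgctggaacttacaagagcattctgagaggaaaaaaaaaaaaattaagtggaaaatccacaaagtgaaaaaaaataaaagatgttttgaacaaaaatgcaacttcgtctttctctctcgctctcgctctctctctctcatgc
Lcat, chr8:105943403-105943652: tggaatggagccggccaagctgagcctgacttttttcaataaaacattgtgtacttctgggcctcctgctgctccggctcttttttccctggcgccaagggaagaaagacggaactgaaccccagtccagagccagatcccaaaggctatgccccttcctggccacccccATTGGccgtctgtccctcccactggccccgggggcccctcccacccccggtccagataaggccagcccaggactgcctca

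The motifs searched on both strands were the TATA box letters TATAAA, the Sp1 box letters GGGCGG, the CCAAT box, the STAT core TTCNNNGAA, the AP-1 site TGANTCA and the E-box CACGTG. The second Apoe sequence holds TATAAA with its first base at -100 and at -96, overlapping each other, and Lcat holds CCAAT at -80. None of the 6 motifs was found in the first Apoe sequence, in that of the Apoe start not shown or in that of Apod. Among 32851 windows of 250 bases before starts, 12.4% hold the TATA letters, 32.7% the Sp1 letters, 33.8% the CCAAT box, 7.02% the STAT core, 6.75% the AP-1 site and 6.02% the E-box.

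Per unit of transcript length, Apoe was the most abundant of the genes in host astrocytes, in all graft groups and in SPONT, CNTF, IGF-1, 1% FBS, 5% FBS and CNTF + 5% FBS. Levels are given as CPM (a gene's share of all gene counts of its library) or, between genes, as FPKM (CPM divided by the union exon length in kilobases). In FPKM, healthy astrocytes held 8663 ± 1461 (SD, n = 9) of Apoe, 1234 ± 191 of Clu, 221 ± 19.6 of Lcat, 33.6 ± 6.77 of Apod, 18.5 ± 3.20 of Apoc1 and 3.73 ± 0.984 of Lpl. In 20% FBS the order of the leading genes was the other way, with Clu at 1540 ± 45.1 FPKM and Apoe at 570 ± 64.7 (n = 4). NPC P15 held little of any of them, from 18.0 ± 2.21 FPKM for Apoe and 16.5 ± 2.74 for Lcat down to 0.0168 ± 0.0336 for Apoc1.

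**Figure D1:**
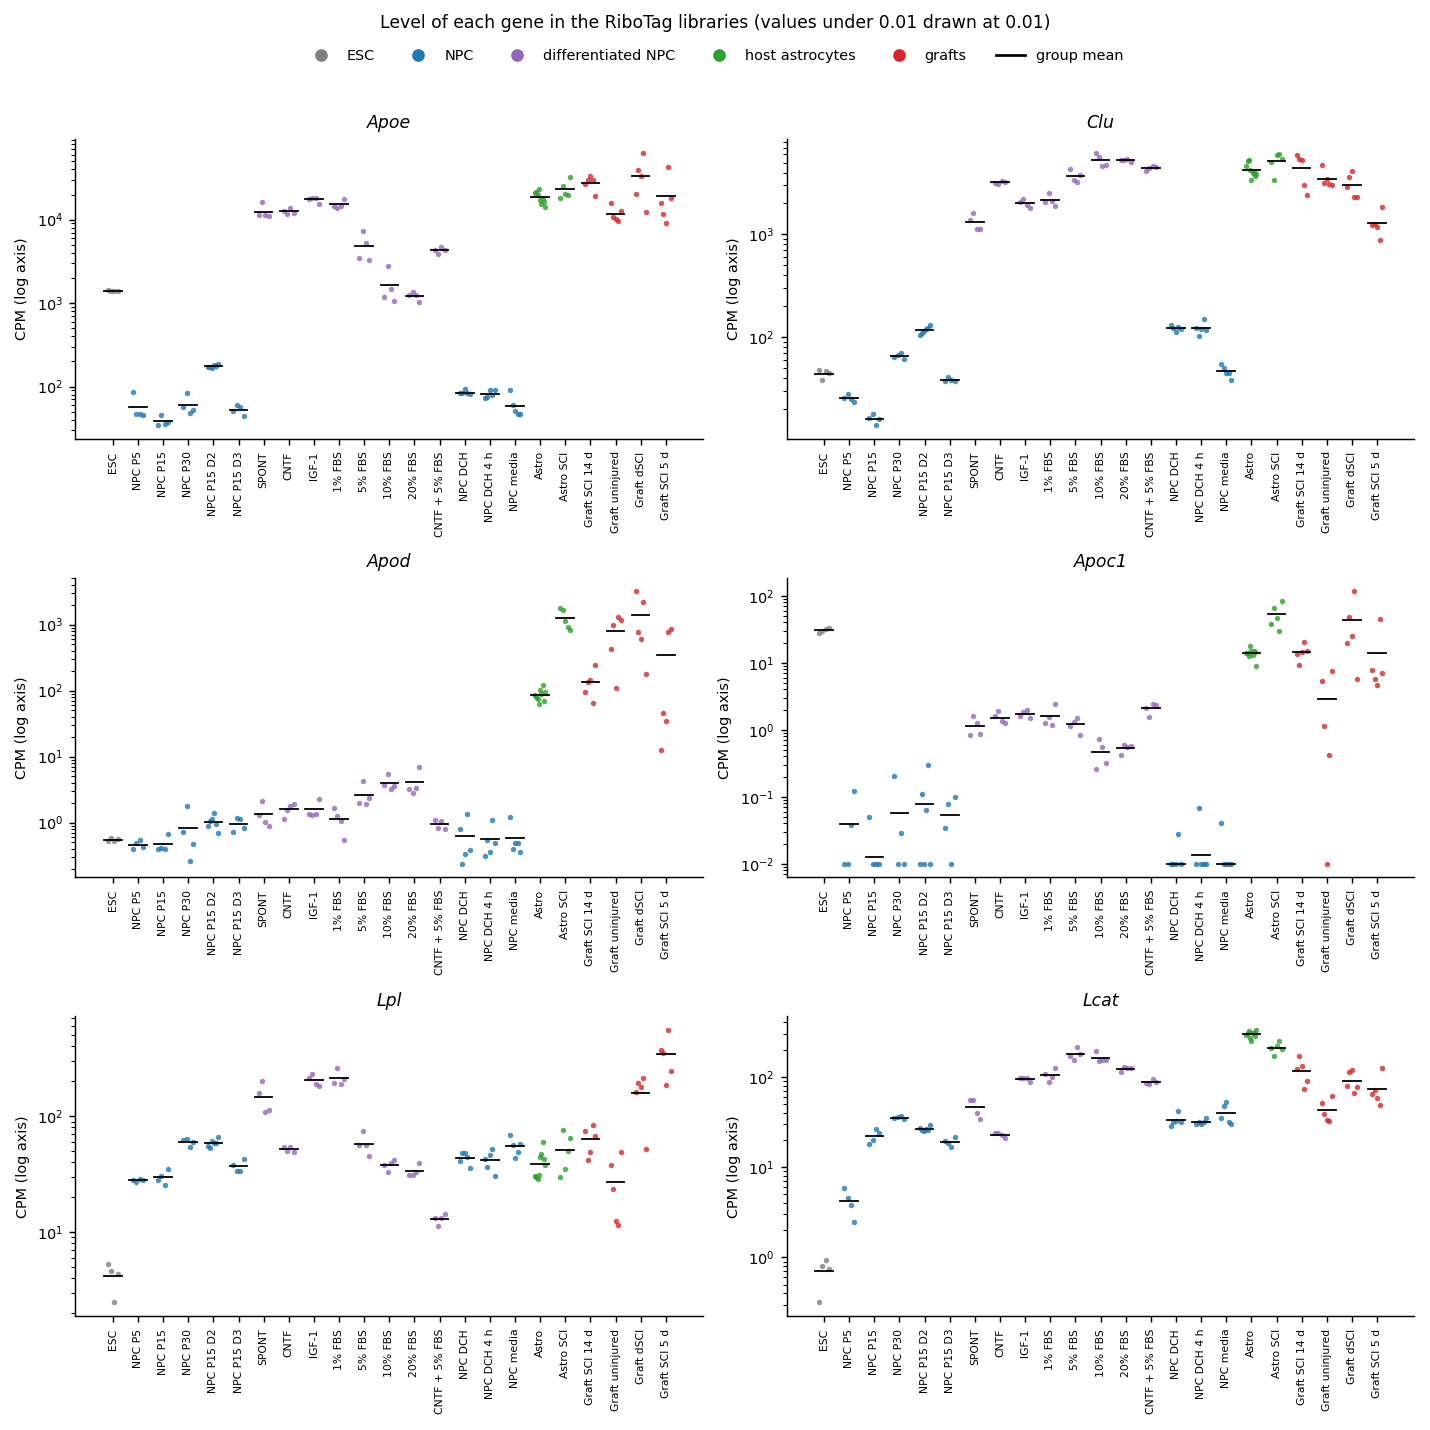
Level of each gene in every library, with the 23 groups on the x axis and CPM on a log y axis. Points are libraries, lines are group means, and values under 0.01 are drawn at 0.01. Apoe and Clu stay at or below 186 CPM in NPC and at or above 876 in all differentiated, astrocyte and graft libraries, and Apod exceeds 10 CPM in spinal cord libraries only.

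Totals of gene counts were 30473157–147764968 in the 96 libraries counted from 2 read data sets each and 12286240–18085106 in the 11 counted from 1 (NPC P15 D2 and Graft SCI 5 d). The 7 astrocyte markers summed to 32652–40487 CPM in Astro, 24103–40359 in Astro SCI, 6408–26559 in grafts and 1168–1218 in NPC P15. The 7 oligodendrocyte markers were not absent from host astrocyte libraries, at 5753–12583 CPM in Astro and 23623–40067 in Astro SCI, and they summed to 1285–27673 in grafts. The 13 markers of microglia and macrophages summed to 21.3–41.4 CPM in Astro, 240–1516 in Astro SCI and 202–9619 in grafts, and the highest sums were in Graft dSCI replicate 4 (6872) and Graft SCI 5 d replicate 4 (9619). The 5 fibroblast markers summed to 137–219 CPM in Astro and 642–19320 in grafts. In tissue libraries, fewer cells of a type and less RNA per cell cannot be told apart.

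Tests were edgeR quasi-likelihood F tests, with p-values adjusted over all genes tested and a change called at an adjusted p below 0.01. Named levels are CPM of all counts, and log2 fold changes (log2FC) are on TMM-scaled counts. The counts of called genes are read against the share of all tested genes called in the same comparison. From ESC to NPC P15, 2 of the 6 genes rose and 3 fell, where 67.2% of all genes were called. In NPC P30 against NPC P5, 3 of 5 tested rose (all genes 35.5%), and in NPC P15 D3 against NPC P15, 2 of 5 rose (48.0%).

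With differentiation 5 of 6 rose in SPONT against NPC P15 (57.2%). Against SPONT, 1 rose and 2 fell with CNTF (19.9%), 2 rose with IGF-1 (6.55%) and 2 rose with 1% FBS (8.78%). Against 1% FBS, 2 rose and 2 fell in 5% FBS (31.1%), and 2 rose and 3 fell in 20% FBS (60.0%). In CNTF + 5% FBS, 3 fell against 5% FBS (23.3%), and 2 rose and 3 fell against CNTF (72.8%). In NPC DCH against NPC media 1 of 5 tested rose (4.32%). By edgeR 0 of 5 were called in NPC DCH 4 h against NPC DCH, where 44 of 13768 genes were (0.320%), and DESeq2 called 0 of them as well.

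In the spinal cord 2 rose and 1 fell in Astro SCI against Astro (41.1%), and 4 rose in Graft uninjured against NPC P15 (52.3%). Among grafts, 2 were higher in Graft SCI 14 d than in Graft uninjured (4.64%), 2 were higher in Graft dSCI than in Graft uninjured (4.19%), 1 was higher in Graft dSCI than in Graft SCI 14 d (1.83%), and 1 was higher and 1 lower in Graft SCI 14 d than in Graft SCI 5 d (5.30%). Against hosts, 1 was higher and 5 lower in Graft uninjured than in Astro (49.7%), and 3 were lower in Graft SCI 14 d than in Astro SCI (14.6%). The difference in the CNTF response between 5% FBS and no serum was called for 2 genes (22.9%), and that in the injury response between grafts and hosts for 3 (16.8%). Several of these comparisons share a group (SPONT, 1% FBS, Graft uninjured, Astro, NPC P15), so their values are not independent of each other.

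Apoe had the widest range of the genes in absolute CPM. In the 4 ESC libraries it measured 1447, 1384, 1397 and 1391 CPM, and in NPC P15 34.6, 45.2, 35.9 and 38.0. The groups do not overlap, and Apoe fell in NPC with a log2FC of -5.28 (SE 0.08, adjusted p = 9.4e-13). Between NPC groups the means ran from 38.4 CPM in P15 to 175 in P15 D2, whose libraries (167–186) lie above those of every other NPC group and were counted from 1 read data set each. The part of that difference in the level was not tested. Apoe rose in D3 against the P15 of the first derivation (log2FC 0.51, SE 0.11, adjusted p = 0.00154, or 0.0993 with all 23 groups in 1 fit), and did not pass the test between P30 and P5 (0.06, SE 0.18, adjusted p = 0.812), where P5 replicate 1 at 87.1 and P30 replicate 2 at 83.1 stood above the remaining libraries at 45.5 to 57.6.

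Lowering EGF and FGF for 4 days took Apoe to 11346, 16179, 11250 and 11014 CPM in SPONT, a log2FC of 8.47 (SE 0.19, adjusted p = 7.1e-11) against NPC P15, or 356-fold. With NPC P5, P30, D2 or D3 as the reference it was between 6.22 (D2) and 7.94 (D3). CNTF left the level within the spread of SPONT (11667–13813 CPM, log2FC 0.03, SE 0.13, adjusted p = 0.870, 95% interval -0.23 to 0.29). With IGF-1 it measured 17898, 18324, 18220 and 15347 CPM, which did not pass the test (0.53, SE 0.14, adjusted p = 0.0199). Without SPONT replicate 2, the library at 16179, the same comparison was called (0.71, adjusted p = 6.9e-05), as was 1% FBS against SPONT (0.46, adjusted p = 0.00292, against 0.30 and 0.157 with all libraries).

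Apoe was lower at serum doses above 1% than in 1% FBS. It measured 14700, 13778, 14742 and 17668 CPM in 1% FBS, 3441, 7380, 5272 and 3279 in 5% FBS, 1199, 2762, 1493 and 1051 in 10% FBS, and 1261, 1340, 1252 and 1019 in 20% FBS. Libraries of 5% FBS lie below all of 1% FBS and above all of 10% FBS, while those of 10% and 20% FBS overlap. Against 1% FBS, Apoe fell by 1.66 on the log2 scale in 5% FBS (SE 0.24, adjusted p = 3.6e-04) and by 3.67 in 20% FBS (SE 0.11, adjusted p = 3.8e-11), or 12.8-fold. CNTF added to 5% FBS gave 4295, 3884, 4672 and 4364 CPM, inside the range of 5% FBS alone (-0.24, SE 0.23, adjusted p = 0.426).

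**Figure D2:**
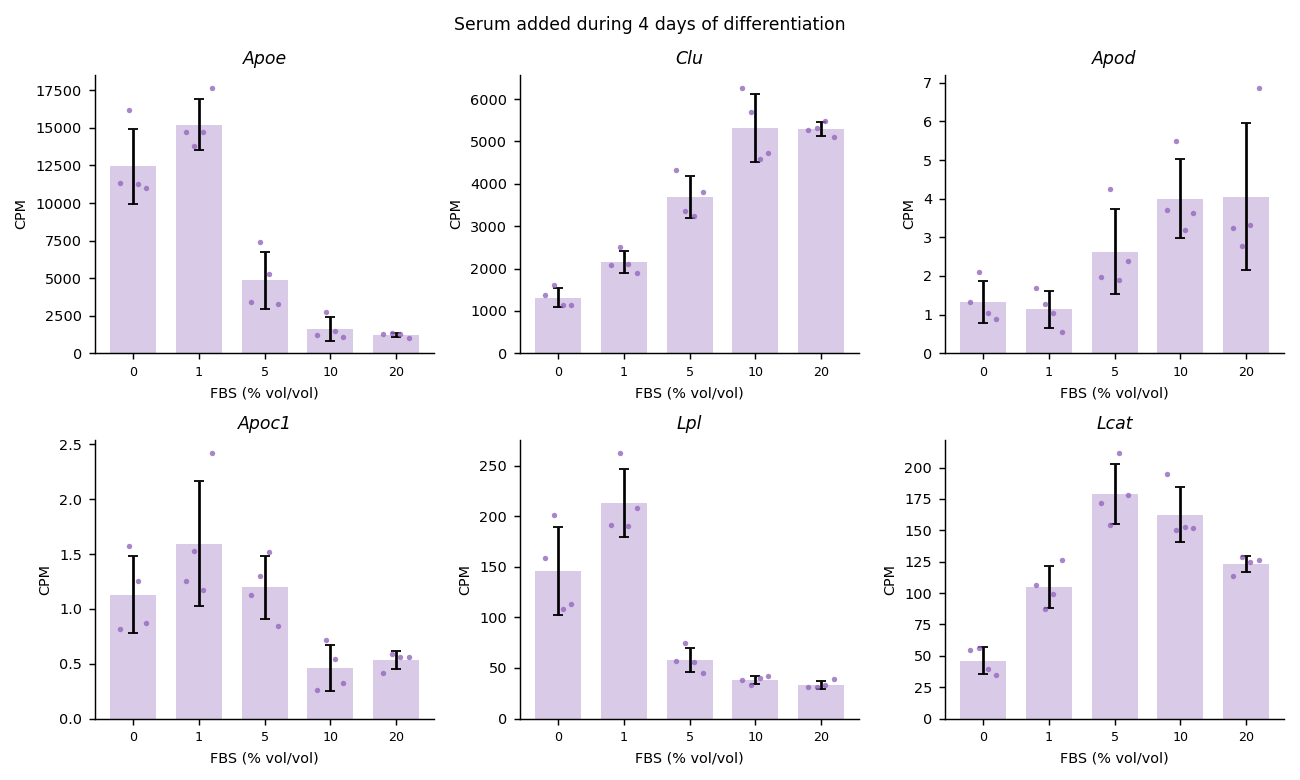
Levels of the 6 genes by percentage of serum (x axis, 0% is SPONT) in CPM on linear axes. Bars are means, error bars SD, and points the 4 libraries. Apoe, Apoc1 and Lpl were lower at 20% than at 1% FBS, Clu and Apod were higher, and Lcat was highest at 5% FBS.

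In the spinal cord Apoe was between 9079 and 63781 CPM in all 34 libraries. Healthy astrocytes ranged from 14031 to 23478 (median 17574), and injured ones measured 18206, 25449, 20083, 20004 and 32819, which overlap (log2FC 0.17, SE 0.15, adjusted p = 0.362). Grafts in uninjured cord measured 15689, 10772, 10189, 9663 and 12666 CPM and those in crush injury 27021, 29550, 33072, 29738 and 19400. All 5 injured libraries lie above all 5 uninjured ones, and Apoe was higher in injury (1.496, SE 0.24, adjusted p = 0.00181), a call lost without the filter on low counts (adjusted p = 0.0101). The same libraries separate in the sums of 7 neuron markers, all detected, at 1134–5794 CPM in uninjured cord and 197–514 after crush, and in oligodendrocyte markers, at 11857–27673 and 4422–10784. Microglia and macrophage sums overlap, at 202–1505 and 446–1540 CPM, and the part of these cells in the result was not tested. The response of grafts to injury was larger than that of hosts by 1.28 (SE 0.26, adjusted p = 6.1e-04). With Astro replicates 1 to 4 or 5 to 9 alone, which the numbering of read data sets in the headers separates, that difference was 1.47 (adjusted p = 0.00274) or 1.14 (adjusted p = 0.00708). In the separate graft and host fits, TMM scaling set every log2FC 0.28 higher in grafts and 0.18 lower in hosts than scaling by library size would. Both shifts widen the gap between the responses in those fits.

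In double crush lesions Apoe measured 20246, 38949, 33095, 63781 and 12436 CPM, with the largest SD of Apoe in any group (19786 CPM). Relative to the mean, Graft SCI 5 d spread more, with a coefficient of variation of 68.5% against 58.7%. It did not pass the test against uninjured cord (1.70, SE 0.39, adjusted p = 0.0145), and without replicate 5, the lowest, it did (1.86, adjusted p = 0.00646). The highest library, replicate 4, was also the highest of the group in the sum of microglia and macrophage markers, 6872 CPM against 953 in the lowest Apoe library. In Graft SCI 5 d, Apoe measured 15915, 11752, 9079, 42469 and 18106 CPM, and replicate 4 again held the highest marker sum (9619 CPM, against 497–749 in the other libraries). Graft SCI 14 d against 5 d was not called (0.65, SE 0.43, adjusted p = 0.377), and without that library it was (1.20, adjusted p = 0.00886). Time and the number of read data sets change together in this comparison and cannot be told apart. The part of microglia and macrophage RNA in these levels was not tested.

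Without injury, grafts held less Apoe than healthy astrocytes (-1.19, SE 0.15, adjusted p = 2.6e-06). In that comparison TMM scaling sets every log2FC 0.55 lower than scaling by library size would. After crush injury, grafts and hosts were not called different (0.17, SE 0.24, adjusted p = 0.644, 95% interval -0.29 to 0.64). Along the order of group means, neighbouring groups of Apoe have separate ranges in 5 of 22 steps, at Graft uninjured over 5% FBS, CNTF + 5% FBS over 10% FBS, ESC over 20% FBS, 20% FBS over NPC P15 D2 and D2 over NPC DCH. The 10 groups from Graft dSCI (mean 33701 CPM) down to Graft uninjured (11796) overlap with their neighbours throughout.

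Clu was low in ESC and NPC and high in every group differentiated from NPC. ESC libraries measured 47.1, 37.7, 46.4 and 44.3 CPM and NPC P15 16.0, 17.8, 13.9 and 15.9, with no overlap (log2FC -1.55, SE 0.12, adjusted p = 2.5e-07). Clu then rose with passage, from 23.4–27.6 CPM in P5 to 60.4–69.5 in P30 (1.35, SE 0.09, adjusted p = 9.1e-11), although P15 lies below both. It was higher in D3 than in the first derivation (1.31, SE 0.10, adjusted p = 2.3e-07), and highest among NPC in the hydrogel groups and D2. Of the 6 steps in the order of its group means with separate ranges, 4 lie among NPC groups.

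Clu was the only one of the 5 genes tested that was called in NPC DCH against NPC media. It measured 131, 121, 112, 126 and 119 CPM in NPC DCH and 54.3, 49.8, 44.4, 44.1 and 37.8 in NPC media, and every hydrogel library lies above every library in medium. The log2FC was 1.41 (SE 0.09, adjusted p = 1.4e-09). A hold of 4 h in the hydrogel gave 101–151 CPM (0.01, SE 0.08, adjusted p = 0.997, 95% interval -0.16 to 0.17). Apoe in NPC DCH (81.2–93.1 CPM) against NPC media (46.5–90.6) was not called (0.53, adjusted p = 0.0167), and was without NPC media replicate 1, the library at 90.6 (0.74, adjusted p = 1.2e-05).

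In SPONT, Clu measured 1382, 1603, 1138 and 1134 CPM, a rise of 6.50 against NPC P15 (SE 0.16, adjusted p = 1.5e-10). CNTF raised it to 3182, 3059, 3307 and 3267 CPM (1.30, SE 0.12, adjusted p = 1.7e-05). The libraries with IGF-1 (1796–2188 CPM) and 1% FBS (1894–2502) also lie above all of SPONT, with log2FC of 0.66 (adjusted p = 0.00716) and 0.72 (adjusted p = 0.00445). These calls were lost in 7 of 8 fits for IGF-1 and 5 of 8 for 1% FBS that left out a library, with adjusted p of up to 0.0309 and 0.0196. SPONT replicates 3 and 4 and every 1% FBS replicate but the fourth were such libraries for 1% FBS, and all but SPONT replicate 2 for IGF-1.

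With serum above 1% FBS, Clu rose as Apoe fell. From 1% FBS, it went to 4326, 3362, 3229 and 3796 CPM in 5% FBS (0.77, SE 0.13, adjusted p = 8.2e-04), 6266, 5706, 4584 and 4722 in 10% FBS and 5268, 5323, 5477 and 5102 in 20% FBS (1.27, SE 0.09, adjusted p = 7.1e-08). The ratio of Clu to Apoe, in FPKM, was 0.0892 ± 0.0189 in 1% FBS, 0.542 ± 0.246 in 5% FBS, 2.31 ± 0.882 in 10% FBS and 2.73 ± 0.278 in 20% FBS (SD, n = 4). The ranges of the ratio were separate between 1%, 5% and 10% FBS and overlapped between 10% and 20%. In healthy astrocytes the ratio was 0.144 ± 0.0192 (n = 9).

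The effects of CNTF and serum on Clu did not add up. CNTF + 5% FBS measured 4126, 4458, 4659 and 4511 CPM, and was not called against 5% FBS (0.20, SE 0.10, adjusted p = 0.159), where CNTF alone had raised Clu by 1.30 against SPONT. The difference between those responses was -1.12 (SE 0.16, adjusted p = 6.9e-05) and was called in all 16 fits that left out a library.

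**Figure D3:**
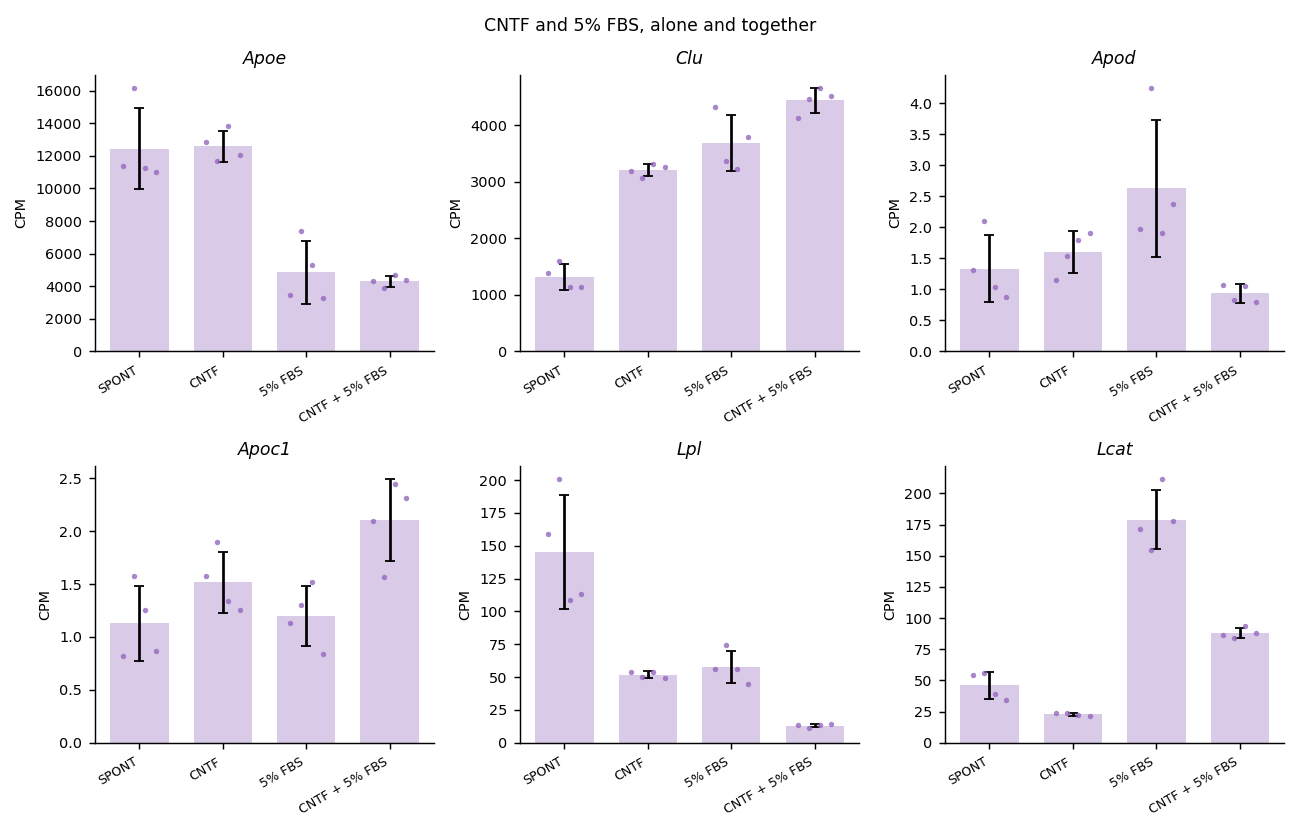
Levels of the 6 genes in SPONT, CNTF, 5% FBS and both together, in CPM on linear axes. Bars are means, error bars SD, and points the 4 libraries. Lpl and Lcat were lower with CNTF both without and with serum, and Apod was lower with CNTF only where serum was present.

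In the spinal cord all libraries of Clu lay between 876 and 6100 CPM. Clu ranged from 3389 to 5269 CPM in Astro (median 4055) and measured 5078, 3392, 5922, 6100 and 5388 in Astro SCI, which was not called (0.12, SE 0.13, adjusted p = 0.462). In grafts it measured 4766, 3144, 3442, 3112 and 3007 CPM in uninjured cord, 5969, 5387, 5331, 3015 and 2441 after crush, and 2882, 3582, 4116, 2318 and 2302 after double crush, and none of the 3 comparisons between them was called. At 5 days it was lower, at 1234, 1269, 1173, 876 and 1840 CPM, with no overlap with 14 days (1.94 higher at 14 days, SE 0.28, adjusted p = 0.00106). The same libraries separate in markers of oligodendrocyte precursors (5 markers, 200–679 CPM at 5 days and 820–2427 at 14 days) and of fibroblasts (4076–12378 and 642–2563), all detected, and in the number of read data sets. Time cannot be told apart from that number, and the part of the other cells was not tested. Clu was lower in Graft uninjured than in Astro (-0.82, SE 0.13, adjusted p = 2.7e-05), where the shift of 0.55 from the scaling is of similar size, and Graft SCI 14 d against Astro SCI was not called (-0.31, SE 0.24, adjusted p = 0.389).

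Apod separated tissue from culture. All culture libraries held 0.237–6.87 CPM, and all spinal cord libraries 12.7–3191. Within culture it measured 3.25, 2.78, 3.32 and 6.87 CPM in 20% FBS against 1.68, 1.27, 1.04 and 0.553 in 1% FBS, a rise of 1.81 (SE 0.35, adjusted p = 5.8e-04). The gain of 5% FBS over 1% FBS was not called (1.21, SE 0.37, adjusted p = 0.0201). In CNTF + 5% FBS it measured 1.08, 0.821, 1.06 and 0.789 CPM, lower than in 5% FBS (-1.57, SE 0.28, adjusted p = 0.00210) and than in CNTF (-0.88, SE 0.20, adjusted p = 7.6e-04). CNTF against SPONT was not called (0.27, SE 0.29, adjusted p = 0.507), and the responses to CNTF with and without serum differed by -1.85 (SE 0.43, adjusted p = 0.00300). With all 23 groups in 1 fit, the calls of 20% FBS (adjusted p = 0.0204), CNTF + 5% FBS against 5% FBS (0.197) and against CNTF (0.379) and the difference in the CNTF response (0.279) were lost. The sum of the 5 fibroblast markers was 418–529 CPM in 20% FBS, 133–430 in 5% FBS, 13.7–66.9 in 1% FBS, 19.2–25.2 in CNTF + 5% FBS and 4.06–5.81 in CNTF. It moved with Apod between the serum groups and between 5% FBS and CNTF + 5% FBS, and the other way between CNTF and CNTF + 5% FBS. Its part in the results was not tested.

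In SPONT, Apod at 1.32, 2.11, 1.03 and 0.885 CPM was not called against NPC P15 (0.400–0.675 CPM, 1.64, SE 0.48, adjusted p = 0.0104). It was called without NPC P15 replicate 4 (1.85, adjusted p = 0.00793) and with NPC P5 as the reference (1.68, adjusted p = 0.00560), but not with NPC P30, D2 or D3.

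Apod rose in host astrocyte libraries after injury. It ranged from 62.9 to 119 CPM in the 9 healthy libraries (median 85.4) and measured 1784, 1675, 1141, 928 and 818 after crush. No healthy library came near an injured one, and the log2FC was 3.68 (SE 0.18, adjusted p = 8.2e-11), or 12.9-fold. With healthy replicates 1 to 4 or 5 to 9 alone it was 3.93 or 3.51. Oligodendrocyte markers rose in the same libraries, from 5753–12583 to 23623–40067 CPM with all 7 markers detected, and Apod and that sum have the same order across the 5 injured libraries except for replicates 2 and 3. Their part in the result was not tested.

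In grafts the direction of the injury difference was the other way, and less certain. Apod measured 423, 974, 109, 1289 and 1173 CPM in uninjured cord and 96.2, 135, 145, 65.2 and 242 after crush. Only uninjured replicate 3 at 109 lies within the range of the crush libraries. The comparison was not called (-2.23, SE 0.56, adjusted p = 0.0175), and was without that library (-2.51, adjusted p = 0.00243) or without crush replicate 5 (-2.66, adjusted p = 0.00581). The graft and host responses differed by -5.94 (SE 0.59, adjusted p = 4.2e-08), called in all 24 fits that left out a library. Oligodendrocyte markers separate the graft groups, with 11857–27673 CPM in uninjured cord and 4422–10784 after crush. In uninjured replicate 3 they summed to 13062 CPM, outside the crush range. Fibroblast markers overlap, at 952–3012 CPM in uninjured cord, lowest in replicate 3, and 642–2563 after crush, highest in replicate 5. The part of these cells in the result was not tested.

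Apod in double crush spread from 177 to 3191 CPM (3191, 780, 608, 2226 and 177). It was higher than after single crush (3.18, SE 0.62, adjusted p = 0.00926), but that call was lost in 8 of 10 fits that left out a library, with all 5 crush replicates but the fifth and all double crush replicates but the fifth, at adjusted p of 0.0113 to 0.0323, and with DESeq2 size factors (0.0101). It was not called against uninjured cord (0.93, SE 0.69, adjusted p = 0.477). Replicate 1, the highest, also held the highest sum of fibroblast markers of any library (19320 CPM) and replicate 5 the lowest of its group (4176). Oligodendrocyte sums in the group were likewise highest in replicate 1 (13063 CPM) and lowest in replicate 5 (3734). At 5 days Apod split into 12.7, 45.4 and 34.7 CPM in replicates 1 to 3 and 775 and 862 in replicates 4 and 5. The same libraries split in oligodendrocyte markers, at 1285–2111 CPM and 9591–10830. Fibroblast sums did not split them, at 4420–12378 CPM in replicates 1 to 3 and 5115 and 4076 in replicates 4 and 5. The comparison of 14 days against 5 days was not called (-1.13, SE 0.95, adjusted p = 0.492). The part of these cells in the levels was not tested.

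Against hosts, grafts held more Apod than astrocytes in healthy cord (2.66, SE 0.36, adjusted p = 5.3e-06) and less after crush (-3.20, SE 0.38, adjusted p = 9.3e-05). Oligodendrocyte markers ordered these groups likewise, higher in Graft uninjured than in Astro except for 1 uninjured graft library (11857 CPM) within the range of Astro, and lower in Graft SCI 14 d than in Astro SCI in every library. Fibroblast sums were higher in Graft uninjured (952–3012 CPM) than in Astro (137–219). They overlapped after crush, at 642–2563 CPM in grafts and 470–990 in hosts. The part of these cells in the differences was not tested.

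**Figure D4:**
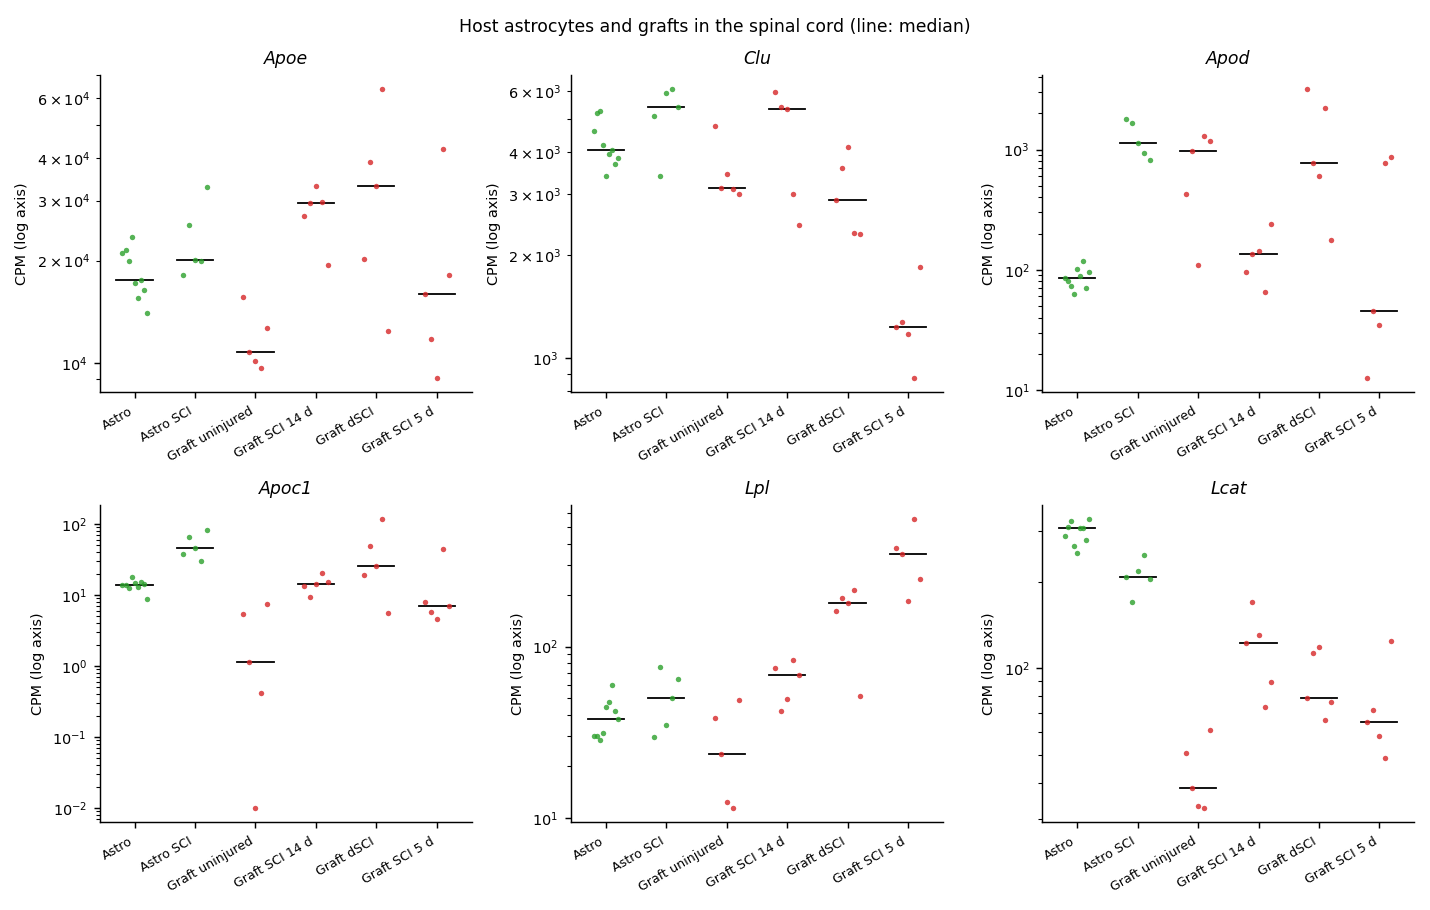
Levels of the 6 genes in the 6 spinal cord groups, in CPM on log axes, with points for libraries and lines for medians. An Apoc1 value of 0 in Graft uninjured is drawn at 0.01. Apod and Apoc1 are higher in Astro SCI than in Astro in every library, and Lcat is highest in Astro.

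Apoc1, the neighbour of Apoe on chromosome 7, was found in ESC and in the spinal cord and was near 0 in NPC. ESC libraries measured 27.9, 29.4, 31.4 and 33.1 CPM. NPC P15 held 4 counts over its 4 libraries, all in replicate 1, which is 0.0500 CPM, and the fall from ESC had an adjusted p of 1.4e-09. In 7 of the 8 NPC groups most libraries were at or under 3 counts, and in NPC P15 D3 2 of 4 were. Per 1000 Apoe counts there were 21.7 ± 1.91 Apoc1 counts in ESC (SD, n = 4), so the neighbours kept no fixed ratio: it was 0.0901 ± 0.0177 in SPONT, 0.750 ± 0.109 in Astro (n = 9) and 2.19 ± 0.435 in Astro SCI (n = 5).

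In SPONT, Apoc1 measured 0.821, 1.58, 1.25 and 0.871 CPM, and was called against NPC P15 (adjusted p = 2.5e-04). In 20% FBS it measured 0.413, 0.593, 0.559 and 0.566 CPM against 1.26, 1.53, 1.17 and 2.42 in 1% FBS, a fall of 1.61 on the log2 scale (SE 0.27, adjusted p = 1.7e-04, or 0.0617 with all 23 groups in 1 fit). The fall of Apoe in the same libraries was larger, and the ratio of the genes was 0.443 ± 0.0928 in 20% FBS and 0.103 ± 0.0263 in 1% FBS. CNTF + 5% FBS held the most of any differentiated culture, at 2.09, 1.57, 2.45 and 2.31 CPM, above every library of 5% FBS, and was not called against it (0.74, SE 0.20, adjusted p = 0.0159).

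Apoc1 rose in host astrocyte libraries after injury. It ranged from 8.89 to 17.7 CPM in Astro (median 14.0) and measured 37.7, 66.2, 46.0, 30.2 and 82.1 in Astro SCI, with no overlap (1.77, SE 0.21, adjusted p = 1.5e-06). Apoe in the same libraries overlapped. Microglia and macrophage markers rose as well, from 21.3–41.4 to 240–1516 CPM, with all 13 detected in both groups, and the injured libraries with the most Apoc1, replicates 5 and 2, also held the most of these markers. The part of those cells in the result was not tested.

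Grafts in uninjured cord held 5.36, 1.13, 0, 0.421 and 7.51 CPM of Apoc1, the 2 highest being the libraries with the highest microglia and macrophage sums (611 and 1505 CPM). This was less than in Astro (-2.74, SE 0.75, adjusted p = 0.00422), a call lost without uninjured replicate 2 (-2.53, adjusted p = 0.0131) and with either set of healthy astrocyte libraries alone (adjusted p = 0.0409 and 0.0306). After crush grafts held 13.3, 9.37, 14.4, 20.3 and 15.0 CPM, above every uninjured library, and the comparison was not called (2.57, SE 0.98, adjusted p = 0.0989). After double crush the values were 19.4, 48.5, 25.3, 117 and 5.65 CPM, which was not called against uninjured cord (4.00, SE 1.13, adjusted p = 0.0377) or crush (1.44, SE 0.54, adjusted p = 0.119). Within the double crush group the order of Apoc1, Apoe and the microglia and macrophage sum was the same in all 5 libraries.

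At 5 days Apoc1 measured 7.90, 5.69, 4.63, 45.0 and 6.94 CPM, and 14 days against 5 days was called only without 5-day replicate 4 (1.41, adjusted p = 0.00982, against 0.19 and 0.875 with it). Grafts after crush held less Apoc1 than host astrocytes after crush (-1.91, SE 0.32, adjusted p = 9.7e-04), with all 5 graft libraries below all 5 of hosts. Microglia and macrophage sums overlapped, at 446–1540 CPM in these grafts and 240–1516 in hosts, and the part of those cells was not tested.

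**Figure D5:**
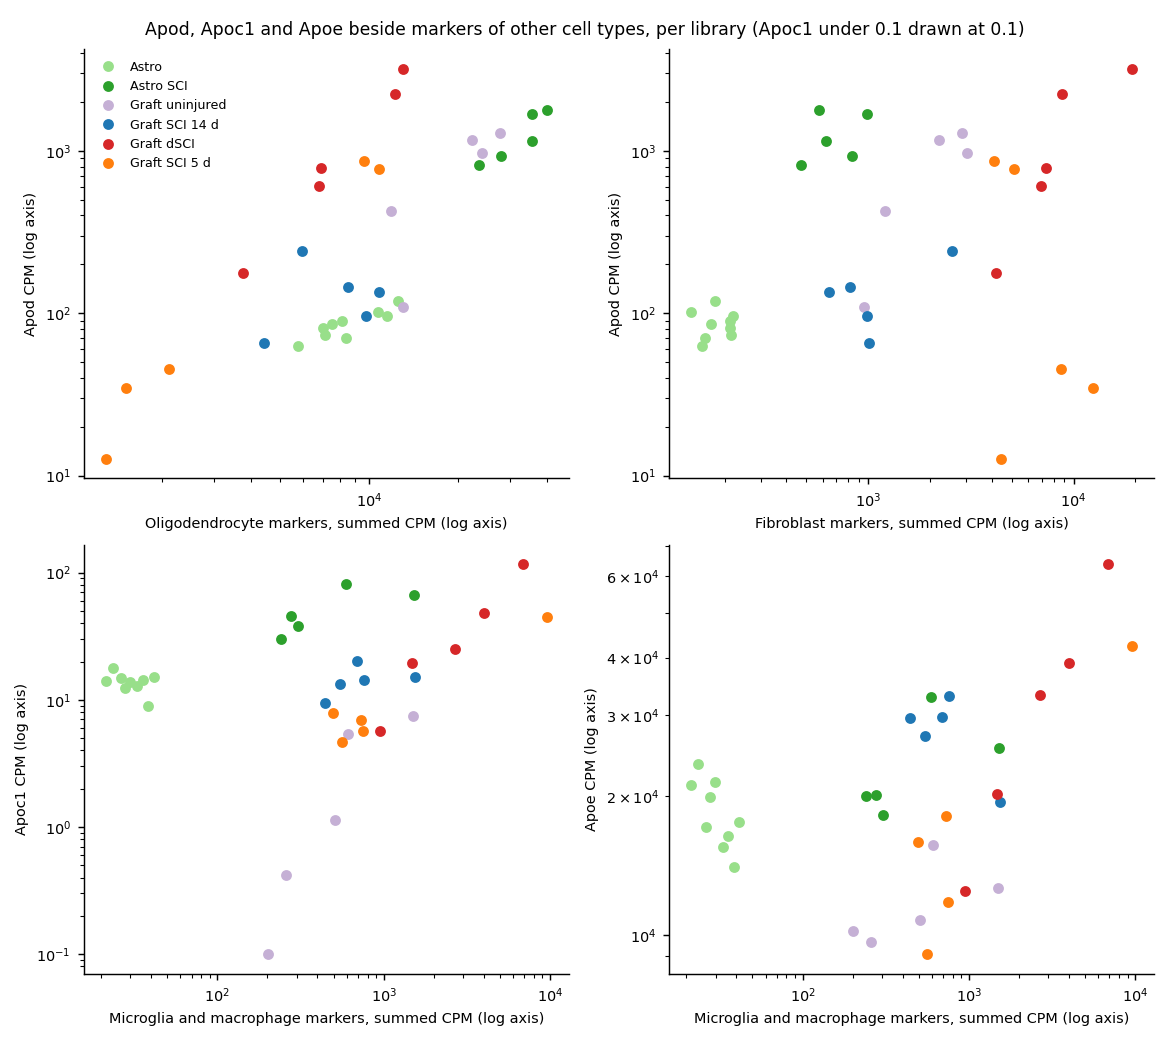
Apod, Apoc1 and Apoe (y axes, CPM) beside the summed CPM of oligodendrocyte, fibroblast or microglia and macrophage markers (x axes) in the 34 spinal cord libraries, all on log axes, with colours for groups. Apoc1 under 0.1 is drawn at 0.1. The 3 graft libraries with the most microglia and macrophage markers held the most Apoc1 among grafts, and Astro SCI lies above the grafts at the same marker level.

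Of the enzymes, Lpl was low in ESC and present in all NPC. It measured 5.27, 4.60, 2.47 and 4.38 CPM in ESC and 28.3, 30.3, 25.7 and 35.2 in NPC P15 (log2FC 2.74, SE 0.23, adjusted p = 7.3e-07). It rose between P5 and P30, from 27.0–29.0 to 53.8–63.4 CPM (1.07, SE 0.08, adjusted p = 1.7e-09), while D3 against the first derivation was not called (0.35, adjusted p = 0.0131) except without NPC P15 replicate 4 (0.44, adjusted p = 0.00455). SPONT libraries measured 159, 201, 108 and 113 CPM, above every NPC library (2.42, SE 0.20, adjusted p = 1.4e-06).

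CNTF lowered Lpl against SPONT, and 5% and 20% FBS lowered it against 1% FBS. CNTF gave 54.0, 49.9, 53.9 and 49.1 CPM (-1.48 against SPONT, SE 0.19, adjusted p = 1.6e-04). From 1% FBS, at 191.7, 262, 190 and 208 CPM, it fell to 56.4, 74.3, 55.9 and 45.0 in 5% FBS (-1.89, SE 0.15, adjusted p = 9.7e-06) and to 31.0, 30.9, 33.2 and 39.3 in 20% FBS (-2.70, SE 0.11, adjusted p = 7.1e-10). CNTF and 5% FBS together gave 13.3, 11.4, 13.2 and 14.3 CPM, lower than 5% FBS alone (-2.23, SE 0.14, adjusted p = 7.9e-06) and CNTF alone (-2.10, SE 0.06, adjusted p = 5.6e-15). The response to CNTF with serum was not called different from that without (-0.76, SE 0.24, adjusted p = 0.0212), but was without SPONT replicate 2, at 201 CPM (-0.98, adjusted p = 6.6e-04). IGF-1 (180–233 CPM) and 1% FBS were not called against SPONT (0.53 and 0.56), and both were without SPONT replicate 2 (0.75 and 0.77, adjusted p = 4.0e-04 and 0.00369).

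In the spinal cord Lpl was highest in grafts at 5 days, at 375, 348, 185, 554 and 248 CPM. At 14 days after crush it measured 75.2, 41.8, 49.5, 83.8 and 68.0 CPM, below every 5-day library (-2.25, SE 0.33, adjusted p = 0.00107), in libraries that also differ in the number of read data sets. After double crush it measured 161, 191.995, 179, 214 and 51.8 CPM against 38.3, 23.5, 12.4, 11.4 and 48.7 in uninjured cord (2.70, SE 0.43, adjusted p = 0.00281), a call lost without uninjured replicate 2 (2.66, adjusted p = 0.0105). Single crush against uninjured cord was not called (1.51, SE 0.40, adjusted p = 0.0227) except without uninjured replicate 5 (1.87, adjusted p = 0.00801), and double against single crush was not called (1.20, adjusted p = 0.0191) except without double crush replicate 5 (1.38, adjusted p = 0.00387). Fibroblast markers separate the libraries in both called comparisons, at 4176–19320 CPM in double crush against 952–3012 in uninjured cord and at 4076–12378 at 5 days against 642–2563 at 14 days. Double crush replicate 4 and 5-day replicate 4 held the most Lpl and the highest microglia and macrophage sum of their groups, and double crush replicate 5 the least of both. The part of these cells in the results was not tested. Angptl4, an inhibitor of Lpl, was higher in double crush (29.5 ± 17.1 CPM) than in single crush (4.66 ± 1.35) and lower at 14 days than at 5 days (28.0 ± 15.2), with log2FC of 2.54 (adjusted p = 0.00528) and -2.40 (adjusted p = 0.00228).

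Host astrocytes held 28.5–59.4 CPM of Lpl, and injured ones 29.6, 75.9, 34.9, 50.0 and 64.3, which was not called (0.21, SE 0.23, adjusted p = 0.470). Healthy replicates 1 to 4 measured 28.5–31.4 CPM and replicates 5 to 9 37.8–59.4, with no overlap. Injured against the first set gave 0.64 (adjusted p = 0.0648) and against the second -0.07 (adjusted p = 0.812). Lower Lpl in Graft uninjured than in Astro (-1.06, SE 0.33, adjusted p = 0.00912) was lost with replicates 1 to 4 alone (-0.68, adjusted p = 0.176) and in 9 of 14 fits that left out a library (Astro replicates 4 to 9 and uninjured replicates 2, 3 and 4, at adjusted p of 0.0107 to 0.0250). TMM scaling set the log2FC of that comparison 0.55 lower than scaling by library size would. Grafts and hosts after crush were not called different in Lpl (0.27, SE 0.29, adjusted p = 0.544).

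Lcat rose along the path from ESC to NPC, with passage and with differentiation. It measured 0.316, 0.798, 0.936 and 0.749 CPM in ESC, 5.89, 4.52, 3.83 and 2.47 in NPC P5, 18.2, 19.9, 26.2 and 24.1 in P15 and 34.7, 35.7, 37.0 and 34.2 in P30. No library of one of these groups overlaps the next, and the rises were 4.89 from ESC to P15 (SE 0.33, adjusted p = 9.0e-08) and 3.06 from P5 to P30 (SE 0.19, adjusted p = 6.5e-11). D3 at the same passage was not called different (-0.17, SE 0.13, adjusted p = 0.279). In SPONT it measured 54.6, 55.9, 39.4 and 34.4 CPM (1.20 against P15, SE 0.18, adjusted p = 1.5e-04).

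CNTF lowered Lcat, to 23.6, 24.0, 22.6 and 21.2 CPM (-0.996, SE 0.16, adjusted p = 7.4e-04). IGF-1 gave 97.4, 95.8, 96.7 and 87.5 CPM, above every SPONT library (1.08, SE 0.15, adjusted p = 0.00455). That call held without SPONT replicate 1 or 2 and was lost in the other 6 of 8 fits that left out a library (SPONT replicates 3 and 4 and each IGF-1 replicate, at adjusted p of 0.0160 to 0.0241). Serum raised it, to 106, 87.0, 99.6 and 127 CPM at 1% (1.20, SE 0.17, adjusted p = 7.8e-04) and to 172, 154, 212 and 178 at 5% (a further 0.76, SE 0.11, adjusted p = 3.9e-04). At 20% it measured 114, 129, 124 and 126 CPM and was not called against 1% (0.21, SE 0.09, adjusted p = 0.0631) except without 1% FBS replicate 4 (0.28, adjusted p = 0.00564). CNTF lowered Lcat in 5% FBS as it did without serum, to 83.7–93.9 CPM (-1.10, SE 0.07, adjusted p = 1.3e-05), and the responses were not called different (-0.11, SE 0.18, adjusted p = 0.645, 95% interval -0.47 to 0.24).

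Lcat was highest in healthy astrocytes, at 252–330 CPM (median 306), and all 9 libraries lie above those of injured ones, at 208, 171, 218, 248 and 204 (-0.68, SE 0.09, adjusted p = 6.5e-06). Across the injured libraries Lcat and the sum of astrocyte markers had the same order. That sum overlapped between Astro (32652–40487 CPM) and Astro SCI (24103–40359). Oligodendrocyte sums did not, at 5753–12583 and 23623–40067 CPM. The part of these cells in the fall, and in the graft differences that follow, was not tested. In grafts the injury difference in Lcat had the opposite sign. Uninjured grafts measured 50.7, 38.3, 33.2, 32.7 and 61.2 CPM and crush grafts 122, 170, 131, 73.2 and 89.8, with no overlap (1.68, SE 0.25, adjusted p = 0.00114), and the responses of grafts and hosts differed by 2.32 (SE 0.25, adjusted p = 1.1e-07). Double crush grafts measured 78.9, 113, 119, 66.3 and 76.4 CPM, higher than uninjured ones (1.29, SE 0.25, adjusted p = 0.00597), a call lost in 6 of 10 fits that left out a library (uninjured replicates 1 to 4 and double crush replicates 2 and 3, at adjusted p of 0.0124 to 0.0199).

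Grafts held less Lcat than hosts in healthy cord (-3.31, SE 0.18, adjusted p = 1.3e-10) and after crush (-0.91, SE 0.19, adjusted p = 0.00353). The second was lost without Astro SCI replicate 3 (adjusted p = 0.0106) or 4 (0.01, at the threshold) or Graft SCI 14 d replicate 1 (0.0106). Lcat in Graft uninjured was higher than in NPC P15 (1.00, SE 0.23, adjusted p = 0.00295), but not without NPC P15 replicate 1 (0.93, adjusted p = 0.0122) or 2 (0.96, adjusted p = 0.0116), nor with NPC media as the reference (0.18, adjusted p = 0.509). Astrocyte markers, lower in grafts than in hosts (10849–17982 CPM in Graft uninjured against 32652–40487 in Astro, and 10713–22734 in Graft SCI 14 d against 24103–40359 in Astro SCI), moved with Lcat in both comparisons and their part in them was not tested.

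Apolipoproteins were far higher in uninjured grafts than in NPC. In Graft uninjured against NPC P15, Apoe rose by 8.29 (SE 0.24, adjusted p = 2.1e-09), Clu by 7.80 (SE 0.21, adjusted p = 1.4e-09) and Apod by 10.79 (SE 0.88, adjusted p = 1.4e-06), where the median of all genes was 0.20. With NPC media as the reference the values were 7.70, 6.29 and 10.45. Markers of several cell types were higher in the same graft libraries, with oligodendrocyte sums of 11857–27673 CPM against 8.76–11.9 in NPC P15, neuron sums of 1134–5794 against 22.3–28.6, fibroblast sums of 952–3012 against 9.41–11.4, and microglia and macrophage sums of 202–1505 against 1.86–2.34. Their part in the rises was not tested. Lpl was not called (-0.11, SE 0.41, adjusted p = 0.828), and Apoc1 was not called (adjusted p = 0.0103) except without uninjured replicate 3, the library with no count (adjusted p = 0.00197).

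Genes of the surrounding pathways were followed in lists of other apolipoproteins, lipoprotein receptors, lipid transporters with their nuclear receptors, lipases with their cofactors, and cholesterol synthesis. The clearest pattern was in cholesterol synthesis (15 genes, among them Hmgcs1, Srebf2 and Insig1). All 15 fell in Astro SCI against Astro, where 41.1% of all genes were called (median log2FC -1.71, all genes 0.02), and all 15 were lower in Graft uninjured than in Astro (49.7% of all genes called, -1.55, all genes 0.06). In Graft uninjured against Astro, TMM scaling set every log2FC 0.55 lower than scaling by library size would. In grafts 11 of 15 were lower after crush than in uninjured cord (4.64%, -1.29) and 11 after double crush (4.19%, -1.40), where Apoe was higher after crush. Insig1, a sterol-regulated brake on the pathway, measured 286 ± 43.1 CPM in Astro (SD, n = 9), 45.9 ± 14.5 in Astro SCI, 83.2 ± 8.05 in Graft uninjured and 20.4 ± 2.74 in Graft SCI 14 d (n = 5 each). Cell type markers separate the same libraries. Oligodendrocyte sums were 5753–12583 CPM in Astro and 23623–40067 in Astro SCI. Neuron sums were 1134–5794 CPM in Graft uninjured and 197–514 in Graft SCI 14 d. Fibroblast sums were 952–3012 CPM in Graft uninjured and 4176–19320 in Graft dSCI. Astrocyte sums were 10849–17982 CPM in Graft uninjured and 32652–40487 in Astro. Their part in these differences was not tested.

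Serum at 5% and 20% lowered the same list against 1% FBS, together with Apoe and Lpl. In 5% FBS, 14 of 15 fell and 1 rose against 1% FBS (median -0.98, 31.1% of all genes called), and likewise in 20% FBS (-1.49, 60.0%), with Cyp51 at 59.7 ± 1.40 CPM in 20% FBS and 271 ± 9.33 in 1% FBS. CNTF lowered 10 of 15 (-0.60, 19.9%), and the hydrogel, which raised Clu, lowered 13 of 15 (-0.49, 4.32%) at small size. With passage 14 of 15 fell (-0.75, 35.5%), and in D3 against the first derivation 12 rose (0.92, 48.0%).

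Among receptors, 4 of 14 rose in Astro SCI and 3 fell, a share near that of all genes (41.1%), led by Trem2, an Apoe receptor of microglia and macrophages, at 47.4 ± 47.3 CPM against 0.840 ± 0.310. Sorl1, a sorting receptor, rose in SPONT from 5.22 ± 0.486 to 44.7 ± 8.39 CPM, where Vldlr fell (log2FC -2.77) and 3 of 13 rose and 4 fell in all (all genes 57.2%). Among transporters Abca1 rose with crush injury in hosts (182 ± 42.2 against 59.6 ± 12.4 CPM) and in grafts (249 ± 102 against 83.1 ± 22.2), and in double crush (405 ± 62.2). The cell type markers given for cholesterol synthesis separate these spinal cord libraries too. Microglia and macrophage sums were 21.3–41.4 CPM in Astro and 240–1516 in Astro SCI. In grafts they overlapped, at 202–1505 CPM in uninjured cord, 446–1540 after crush and 953–6872 after double crush. The part of all these cells in the levels of Trem2 and Abca1 was not tested. Abca1 also rose in 5% FBS against 1% FBS (134 ± 23.9 against 64.8 ± 2.99 CPM), where Apoe fell. Pltp, which moves phospholipid between particles, rose from 4.06 ± 1.16 CPM in NPC P15 to 45.5 ± 8.03 in SPONT and 101 ± 5.26 with CNTF.

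Pla2g7, an enzyme carried on lipoproteins, had a course like that of Apoe in culture. It measured 2.02 ± 0.6247 CPM in NPC P15, 818 ± 123 in SPONT and 1079 ± 109 in 1% FBS, and 36.0 ± 3.30 in 20% FBS (SD, n = 4). Unlike Apoe it fell with CNTF, to 206 ± 12.2 CPM (log2FC -1.98, adjusted p = 7.5e-07). Other apolipoproteins were few. At most 10 of 15 passed the filter on low counts in a comparison of groups, and 5 of those 10 rose in Astro SCI (median 1.34, all genes 41.1%). In NPC P15 against ESC, 3 of 5 fell (all genes 67.2%), and both shares are near those of all genes. Apoa2 fell from 32.7 ± 1.04 to 0.613 ± 0.356 CPM.

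The genes whose pattern was most like each member were named by Pearson's r between group means of log2(CPM + 1) over the 23 groups, among 13052 genes with at least 10 CPM in a group. These are descriptions over groups that share cell lines and libraries. Among the genes most like Apoe were S100a16 (r = 0.97) and Tec (0.96), and Clu was most like Nfasc, 1110032A03Rik and Fmo5 (0.97 each). Apod was most like Klk6 (0.99), Il16 and Medag (0.98 each), and Apoc1 like Mocos (0.94), Akr1b8 and Capg (0.93 each). Lcat was most like Rnf182 (0.92), Tmbim6 and Tceal1 (0.91 each), and Lpl had no close match, with Eepd1 at 0.82, Cd36 at 0.77 and Cmtm3 at 0.76. Between members r was highest for Apoe and Clu (0.87), Clu and Lcat (0.77), and Apod and Apoc1 (0.77), and lowest for Apoc1 and Lpl (0.06). The order depended on the constant added to CPM. With 0.1 in place of 1, r was 0.85 for Apoe and Apoc1, against 0.72 with 1, and 0.75 for Clu and Lcat.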

How the data were processed

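The series holds 107 RiboTag RNA-seq libraries. The authors used Trimmomatic for trimming, HISAT2 for alignment (mm10) and featureCounts for counting per gene, and they deposited raw counts for 27179 Entrez genes per library (tools and build as named in the submitters' processing notes). The study's methods give default settings for the aligner and the counter, under which featureCounts leaves out reads that align to several places, so genes with near-identical copies may be undercounted. Of the identifiers, 25275 were named from RefSeq and 18 from GENCODE M21, and 1886 were left unnamed. No 2 libraries held identical counts.

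From these counts, CPM over all gene counts and, with union exon lengths of GENCODE M21, FPKM were computed. Tests were edgeR 4.0.16 quasi-likelihood F tests in R 4.3.3 with TMM scaling and filterByExpr (minimum count 10), fitted on the groups compared, with Benjamini-Hochberg adjustment over all genes tested and calls at 0.01. The standard error was the log2 fold change over the square root of F, and intervals are 95%. Levels at or under 3 counts in a library were treated as not measurable; this floor covers counting error only. Where a group lay at it, no fold is given. Totals of 12286240 to 147764968 counts set the precision.

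Alternatives were DESeq2 1.42.0, its size factors in edgeR, no filter, the replicate number as a block, all 23 groups in 1 fit, other NPC references, and leaving out each library. Healthy astrocyte replicates 1 to 4 and 5 to 9 were also used apart, an alternative added after the data were seen. The genes and lists were chosen with earlier results of these data known. All 6 genes are named throughout. From each list, up to 3 called genes with the largest change could be named if a group mean reached 10 CPM, and for each of the 6 genes the 3 with the highest Pearson's r; some genes that this rule names are not reported here. Same-numbered replicates were checked for shared deviations from their group means in 21 comparisons, and in 0 was every correlation over 0.1, so the numbers were not taken as pairs. Scripts were tested on simulated data. Python 3.11.15 with pandas 2.3.3 and matplotlib 3.10.9 was used.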

Additional observations from a re-analysis of the deposited data

Results flagged for a closer look

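In groups of 4 to 10 libraries, 20 of 136 gene and group pairs held a library far from the others by Dixon's test, where chance gives about 6.8 (1 in 20). For Apoe these were NPC P5 replicate 1 (87.1 CPM), SPONT replicate 2 (16179), NPC DCH replicate 3 (93.1), NPC media replicate 1 (90.6) and Graft SCI 5 d replicate 4 (42469), all high, and IGF-1 replicate 4 (15347), low. For Clu it was Graft uninjured replicate 1 (4766 CPM). For Apod they were NPC P15 replicate 4 (0.675 CPM), IGF-1 replicate 4 (2.30), 20% FBS replicate 4 (6.87) and NPC media replicate 1 (1.21). For Lcat they were NPC P15 D2 replicate 6 (29.6 CPM), 10% FBS replicate 1 (195) and NPC DCH replicate 4 (41.3), all high, and IGF-1 replicate 4 (87.5), low. IGF-1 replicate 4 was thus set apart for 3 of the 6 genes.

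For Apoc1 the libraries were Graft SCI 5 d replicate 4 (45.0 CPM) and, at levels of a few counts, NPC P15 replicate 1 (0.0500), NPC P30 replicate 1 (0.203), NPC P15 D2 replicate 5 (0.297) and NPC DCH 4 h replicate 2 (0.0684). In Graft SCI 5 d replicate 4, both Apoe and Apoc1 were set apart, and the sum of microglia and macrophage markers was 9619 CPM against 497–749 in the other libraries of the group. The part of those cells was not tested.

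Effects that differed between settings by a test of the difference were the CNTF response with 5% FBS against that without for Clu (-1.12) and Apod (-1.85), and the injury response of grafts against that of hosts for Apoe (1.28), Apod (-5.94) and Lcat (2.32), all log2.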

How the results depend on the processing

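Of 134 gene and comparison pairs tested, 68 were called, 0 of these changed sign under any alternative, and 49 were called under every alternative and every fit that left out a library. The replicate block lost 10 calls and added 1. With it the count of called genes became 0 for IGF-1 against SPONT, Graft dSCI against Graft uninjured and Graft dSCI against Graft SCI 14 d, and 1 for Graft SCI 14 d against 5 d. The other calls lost with the block were Lcat in Graft uninjured against NPC P15 (0.81, adjusted p = 0.0213), Apoc1 (-4.12, 0.0128) and Lpl (-1.04, 0.0154) against Astro, and Lcat in Graft SCI 14 d against Astro SCI (-0.94, 0.0243). With all 23 groups in 1 fit the counts were 1 for NPC P15 D3 against P15, 3 for 20% against 1% FBS, 3 for CNTF + 5% FBS against CNTF, 6 for Graft SCI 14 d and 4 for Graft dSCI against Graft uninjured, 3 for Graft dSCI against Graft SCI 14 d, and 1 for the CNTF response with against without serum. DESeq2 lost 0 calls and gained 10, with 4 in Graft SCI 14 d against Graft uninjured and 2 in Graft dSCI against Graft SCI 14 d; it gave no adjusted p for Apoc1 in Graft uninjured against Astro. Without the filter, Graft SCI 14 d against Graft uninjured kept 1 call (Apoe at 0.0101 was lost), and with DESeq2 size factors Graft dSCI against Graft SCI 14 d had 0 (Apod at 0.0101). The cause was not tested. Leaving out 1 library at a time gave counts of 2–3 for NPC P15 D3, 5–6 for SPONT, 0–5 for IGF-1, 1–4 for 1% FBS, 5–6 for 20% FBS, 1–2 for NPC DCH, 3–5 for Graft uninjured against NPC P15, 2–3 for Graft SCI 14 d and 0–3 for Graft dSCI against Graft uninjured, 0–2 for Graft dSCI and 2–4 for Graft SCI 5 d against Graft SCI 14 d, 4–6 for Graft uninjured against Astro, 2–3 for Graft SCI 14 d against Astro SCI, 2–3 for the CNTF difference and 3–4 for the injury difference. Among changes that were not called, signs turned with the block for Apod in NPC DCH (-0.0909) and NPC DCH 4 h (0.0159), Clu in NPC DCH 4 h (-0.00261, and -0.00292 with all groups in 1 fit), Apoe in Astro SCI (-0.0120) and Apod at 14 d against 5 d (0.64), and in Astro SCI with healthy replicates 1 to 4 for Apoe (-0.000396) and Clu (-0.0229) and with 5 to 9 for Lpl (-0.0745). Leaving out 1 library gave ranges across 0 for Apoe in P30 (-0.11 to 0.35), CNTF (-0.0315 to 0.21), CNTF + 5% FBS against 5% FBS (-0.37 to 0.0567), Astro SCI (-0.0298 to 0.25) and Graft dSCI against Graft SCI 14 d (-0.18 to 0.35), for Apod in 1% FBS (-0.49 to 0.0900), NPC DCH (-0.44 to 0.50) and NPC DCH 4 h (-0.52 to 0.37), for Clu in NPC DCH 4 h (-0.0807 to 0.0639) and Graft dSCI against Graft uninjured (-0.0442 to 0.17), for Lpl in NPC DCH 4 h (-0.16 to 0.0206) and Graft uninjured against NPC P15 (-0.46 to 0.11), for Lcat in NPC DCH 4 h (-0.11 to 0.0338) and the CNTF difference (-0.23 to 0.00872), and for Apoc1 at 14 d against 5 d (-0.0377 to 1.41). TMM scaling moved 20 of 138 group levels by more than 1 SD. With a pseudocount of 0.1 the 3 genes most like Apoc1 shared 0 with those named. Apoc1 in NPC lies at a few counts, where depth allows no comparison between NPC groups.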
